A study of Mus musculus with 8 samples.

Results

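Cathepsins are the proteases of lysosomes, the acidic compartments in which cells break down proteins. The 10 members described here are the cathepsin genes other than cathepsin K that the table lists under the symbols Ctsa, Ctsb, Ctsc, Ctsd, Ctse, Ctsh, Ctsl, Ctso, Ctss and Ctsz. The rule that selects them uses only the symbol, and the set was drawn up with earlier results of these data known. Each of the 10 was found as 1 row among 25124 genes, and all 10 were among the 11700 genes tested, which had a mean of at least 0.5 FPKM over the 8 libraries. FPKM is the read count of a gene scaled by the length of its transcript and by the total of its library.

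Cathepsins are made as inactive precursors, carried to the lysosome largely by mannose-6-phosphate receptors, and activated there by cleavage. They fall into cysteine, aspartic and serine proteases, named after the residue that cuts. In macrophages they digest engulfed protein and trim antigens and other proteases. Cathepsin K, the collagen-degrading cathepsin of osteoclasts, is given only as a reference.

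The cells were osteoclast precursor (OCP) cells, adherent mouse bone marrow cells grown with M-CSF, the growth factor of macrophages and their precursors. All 4 groups received M-CSF at 30 ng/mL. The "no PRDX1 + no RANKL" group received nothing else, "PRDX1 + no RANKL" received 200 nM PRDX1, "no PRDX1 + RANKL" received 100 ng/mL RANKL, the cytokine that drives osteoclast differentiation, and "PRDX1 + RANKL" received both, each for 48 h. PRDX1 is a peroxiredoxin, an antioxidant enzyme, here added from outside as a purified His-tagged protein made in Escherichia coli, from which the study's methods say endotoxin was removed; a treatment with a protein purified in the same way but without PRDX1 was not among the 4 groups. The labels give C57BL/6 mice of 6 to 8 weeks, whereas the study's culture methods name male ICR mice of 6 weeks, and which strain these libraries came from could not be settled. Each group had 2 libraries, which no label ties to separate animals, so that p-values measure the spread between these libraries, which may be technical.

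The libraries held 27284654 to 46171808 reads, of which 24542578 to 41712973 lay on genes. The 10 cathepsins were deeply covered, with 1107 reads (Ctse) to 386860 reads (Ctsb) per gene and library. The coefficient of variation between the 2 libraries of a group was 0.0981% to 9.49%, with a median of 2.63%.

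Markers of macrophages were abundant in every library, and all 6 of 6 passed the filter. Their summed level was 2012 to 2035 FPKM with neither treatment, 2290 to 2362 with PRDX1, 1265 to 1384 with RANKL and 1701 to 1743 with both. Markers of osteoclasts, 8 of 9 of which passed the filter, summed to 34.4 to 35.3 FPKM with neither treatment and 80.4 to 84.8 with PRDX1, against 1834 to 1931 with RANKL and 235.3 to 242.8 with both. The neutrophil markers, 5 of 8 of which passed, summed to 8.19 to 12.2 FPKM with neither treatment, 38.8 to 43.3 with PRDX1, 16.2 to 16.6 with RANKL and 34.0 to 37.5 with both, while the defining marker Ly6g did not exceed 0.279 FPKM. Sums of stromal, dendritic and B cell markers were low but also higher with PRDX1. Stromal markers, with 3 of 6 passing, summed to 7.67 to 10.4 FPKM with neither treatment, 16.3 to 16.4 with PRDX1, 7.48 to 9.49 with RANKL and 15.3 to 19.0 with both. Dendritic cell markers, with 3 of 6 passing, summed to 2.28 to 2.85, 3.95 to 4.25, 2.75 to 3.13 and 5.08 to 5.98 FPKM in the same order. B cell markers, with 0 of 5 passing, summed to 0.589 to 0.976, 1.59 to 2.13, 0.631 to 0.922 and 1.37 to 1.61. Within these sums single markers went the other way. Without RANKL, the untreated and PRDX1 means were 1.25 and 0.602 FPKM for the dendritic marker Cd209a. They were 508.3 and 490.6 FPKM for Csf1r of macrophages and 1.88 and 0.662 for Itgb3 of osteoclasts. With RANKL, the means of Cd209a, Xcr1, Ly6g and Ms4a1 were lower with PRDX1. The 6 markers of T and NK cells stayed at or below a sum of 0.221 FPKM with Cd3e and Ncr1 at 0 in all libraries, and those of mast cells and basophils at or below 0.0700 with 5 of 6 at 0. The macrophage sum was higher with PRDX1 and lower with RANKL, as were most cathepsins below, and the part of cell composition in the cathepsin values was not tested. In bulk RNA, fewer cells of a type and less RNA per cell cannot be told apart.

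Together the 10 cathepsins were among the major transcripts of these cells, and their summed level differed several-fold between the groups. They summed to 7384 and 7463 FPKM in the 2 libraries with neither treatment, 11839.6 and 11771 with PRDX1, 3697 and 3725 with RANKL and 7658 and 7647 with both. Relative to the untreated group, the sum was 1.59 times as high with PRDX1, 0.4999 times with RANKL and 1.03 times with both. In reads, the 10 genes took a mean of 2.002%, 3.15%, 0.933% and 1.996% of a library in the same order. The sum of the 7 cysteine cathepsins was 3598 and 3613 FPKM in the untreated libraries, 6429 and 6478 with PRDX1, 1984 and 2031 with RANKL and 4400 and 4454 with both, so that no group overlapped another.

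**Figure D1:**
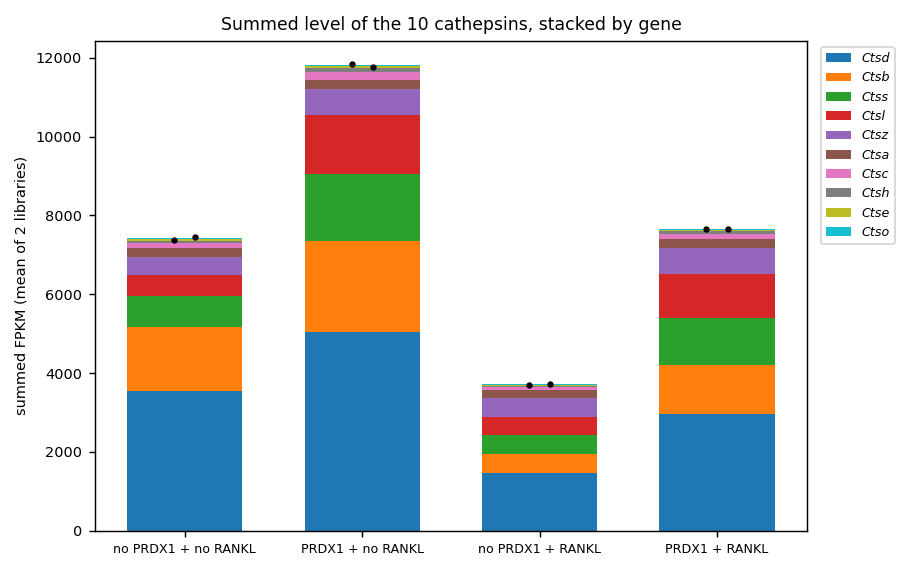
Bars give the mean FPKM of the 10 cathepsins in each group, stacked by gene on an axis from 0, and the dots give the summed FPKM of each of the 2 libraries. The sum is 7424 with neither treatment, 11805 with PRDX1, 3711 with RANKL and 7653 with both, and Ctsd is the largest part of every bar.

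Ctsd led the family in every group and made up 47.8% of the sum with neither treatment, 42.8% with PRDX1, 39.7% with RANKL and 38.7% with both. In untreated cells it ranked 5 of all genes by FPKM in both libraries, and with RANKL alone it ranked 14 and 13. By mean FPKM, untreated cells had the order Ctsd, Ctsb, Ctss, Ctsl, Ctsz, Ctsa, Ctsc, Ctsh, Ctse and Ctso, with no overlap between the libraries of neighbouring genes. With RANKL alone Ctss, Ctsz, Ctsb and Ctsl followed Ctsd at means of 481.7, 479.7, 478.9 and 445.5 FPKM, and neighbours among these 4 overlapped. The share of Ctsb in the sum was 21.7% in untreated cells and 12.9% with RANKL, whereas that of Ctsz was 5.96% and 12.9%. The share of Ctsl was 7.41% in untreated cells and 12.7% with PRDX1, and that of Ctss 10.6% and 14.3%.

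Levels are per base of the transcript that the authors assigned to each gene, and this length matters for the order. For Ctsc they used 7457 bases and for Ctsl 3499, against 2493 and 1971 bases of exon in the GENCODE transcript of the same RefSeq entry. Comparisons of 1 gene between groups do not depend on the length.

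The aspartic cathepsins are Ctsd and Ctse. Ctsd encodes cathepsin D, the main aspartic protease of lysosomes, and lies on the minus strand of chromosome 7 of mm10 from 142375910 to 142387827. It was at 3508 and 3593 FPKM in untreated cells, 5065 and 5045 with PRDX1, 1452 and 1498 with RANKL and 2948 and 2980 with both. The 4 groups did not overlap, with PRDX1 alone highest and RANKL alone lowest. Ctse, on chromosome 1 from 131638314 to 131675507, encodes cathepsin E, an aspartic protease of endosomes. Its level was 49.8 and 44.4 FPKM in untreated cells, 52.1 and 50.5 with PRDX1, 19.2 and 21.2 with RANKL and 33.8 and 36.0 with both. Here the untreated and PRDX1 libraries lay close together and well above both RANKL groups.

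Of the cysteine cathepsins, Ctsb, Ctsl and Ctss had the highest means in every group except RANKL alone, where the mean of Ctsz lay among theirs. Ctsb encodes cathepsin B, which cuts both within proteins and from their carboxyl ends, and lies on chromosome 14 from 63122462 to 63145923. It was at 1591 and 1632 FPKM in untreated cells, 2290 and 2316 with PRDX1, 462.2 and 495.6 with RANKL and 1237 and 1256 with both. Its group means spanned 2.26 on the log2 scale, the widest range of the 10 members.

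Ctsl, on chromosome 13 from 64361890 to 64370520, encodes cathepsin L, an endopeptidase. It was at 558.0 and 542.6 FPKM in untreated cells, 1529 and 1472 with PRDX1, 466.5 and 424.6 with RANKL and 1151 and 1109 with both. Ctss, on chromosome 3 from 95526786 to 95556405, encodes cathepsin S, which stays active at neutral pH and cuts the invariant chain of MHC class II. Its level was 804.3 and 768.3 FPKM in untreated cells, 1691 and 1694 with PRDX1, 510.9 and 452.6 with RANKL and 1190 and 1170 with both. For both genes the PRDX1 libraries, with or without RANKL, lay above all libraries without PRDX1.

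Sequences upstream of the annotated starts are shown for the most abundant cathepsin, Ctsd, and for Ctsl and Ctss, whose levels were farthest apart between PRDX1-treated and untreated cells. The sequences are the 250 bases before the start in RefSeq's GRCm38.p6, 5′ to 3′ on the gene's strand, for Ctsd at chr7:142387828-142388077 (minus), Ctsl at chr13:64370521-64370770 (minus) and Ctss at chr3:95526536-95526785 (plus). Capitals mark the E-box CACGTG, the core of the element through which the MiT/TFE factors bind lysosomal genes.
Ctsd: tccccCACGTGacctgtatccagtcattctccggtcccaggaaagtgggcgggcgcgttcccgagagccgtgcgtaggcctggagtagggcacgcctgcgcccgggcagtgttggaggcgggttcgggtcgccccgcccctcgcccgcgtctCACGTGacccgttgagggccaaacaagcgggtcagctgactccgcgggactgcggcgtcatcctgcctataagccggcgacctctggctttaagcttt
Ctsl: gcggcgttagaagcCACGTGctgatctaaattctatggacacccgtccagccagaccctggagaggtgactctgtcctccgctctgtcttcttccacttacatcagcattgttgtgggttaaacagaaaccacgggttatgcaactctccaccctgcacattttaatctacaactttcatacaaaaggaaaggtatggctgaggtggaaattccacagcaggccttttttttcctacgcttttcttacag
Ctss: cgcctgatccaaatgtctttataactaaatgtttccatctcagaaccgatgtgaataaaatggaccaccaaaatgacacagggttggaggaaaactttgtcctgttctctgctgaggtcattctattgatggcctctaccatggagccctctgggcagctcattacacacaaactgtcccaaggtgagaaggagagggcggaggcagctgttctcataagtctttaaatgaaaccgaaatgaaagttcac
The E-box occurred in Ctsd 245 and 98 bases before the start and in Ctsl 236 bases before it, and these letters were not in the Ctss window. Upstream windows from RefSeq were found for 7 members, 8 windows in all because Ctsa has 2, and not for Ctsb, Ctse and Ctsh. Of the 8 windows 3 held an E-box, the third being 1 of those of Ctsa, against 6.02% of 32851 windows of the same length. The AP-1 motif TGANTCA was in 0 of 8 windows (6.75% of all), the interferon-stimulated response element, searched as GAAA followed after any 2 bases by GAAA, in 1, that of Ctss 21 bases before the start (2.98%), and the NF-kB consensus in 1, that of Ctso (3.90%). Motifs were searched on both strands. A match describes the sequence and is no evidence of binding.

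The other cysteine cathepsins include exopeptidases, which remove residues from the ends of proteins. Ctsc, on chromosome 7 from 88278085 to 88315861, encodes cathepsin C, the dipeptidyl peptidase that activates the serine proteases of leukocyte granules. It was at 139.0 and 136.5 FPKM in untreated cells, 187.7 and 186.0 with PRDX1, 71.5 and 69.9 with RANKL and 128.7 and 123.9 with both. Ctsh, on chromosome 9 from 90054267 to 90076095, encodes the aminopeptidase cathepsin H. It was at 65.1 and 57.7 FPKM in untreated cells, 102.1 and 103.1 with PRDX1, 40.0 and 38.3 with RANKL and 67.1 and 64.2 with both, so that the untreated and doubly treated groups overlapped.

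Ctso, on chromosome 3 from 81932601 to 81956725, encodes cathepsin O and was the least abundant member. It was at 16.2 and 15.6 FPKM in untreated cells, 19.0 and 20.3 with PRDX1, 12.7 and 11.1 with RANKL and 14.3 and 15.6 with both. Ctsz, on chromosome 2 from 174427494 to 174439039, encodes cathepsin Z (also called X), a carboxypeptidase. It was at 439.9 and 444.9 FPKM in untreated cells, 658.4 and 638.4 with PRDX1, 467.7 and 491.7 with RANKL and 666.5 and 661.2 with both. Ctsz was thus high in both PRDX1 groups and was the member whose RANKL libraries lay above the untreated ones.

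Ctsa, on chromosome 2 from 164833773 to 164841032, encodes cathepsin A, the serine carboxypeptidase that protects neuraminidase 1 and beta-galactosidase in lysosomes. It was at 213.1 and 228.2 FPKM in untreated cells, 244.3 and 247.1 with PRDX1, 194.3 and 222.2 with RANKL and 222.2 and 230.7 with both. The untreated libraries overlapped those of RANKL alone and of both treatments.

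**Figure D2:**
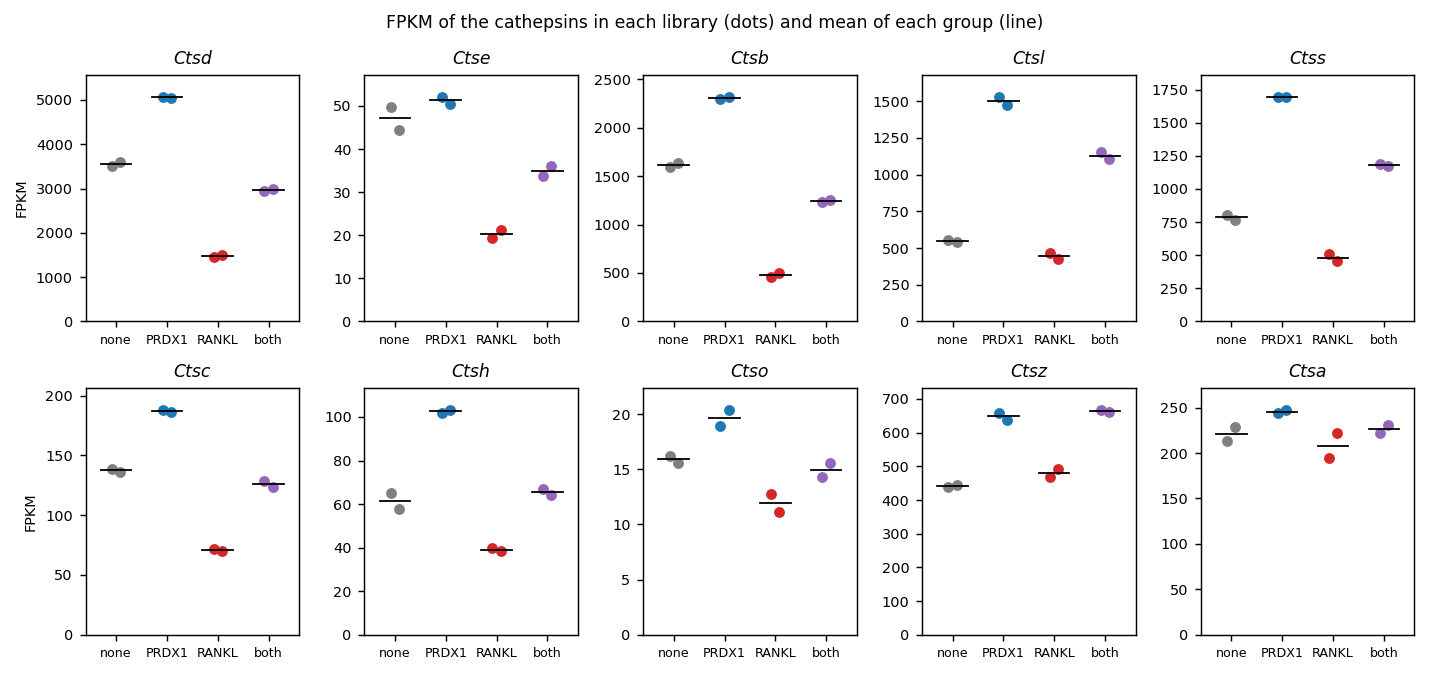
Each panel plots the FPKM of 1 cathepsin from 0 in the 8 libraries (dots, 2 per group) with the group mean (line), for cells without treatment (none), with PRDX1, with RANKL or with both. In all panels except those of Ctsz and Ctsa the RANKL group is the lowest without overlap, and in all but that of Ctsz the PRDX1 group has the highest mean.

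PRDX1 treatment raised 3 of the 10 cathepsins in the absence of RANKL, namely Ctsl, Ctss and Ctsh, and lowered none. A gene was called when limma's test, with Benjamini-Hochberg adjustment over all 11700 genes, gave an adjusted p under 0.05 and the fold change on the log2(FPKM + 1) scale was at least 1.5, that is 0.585 in log2. By this rule 3.80% of all genes were called higher and 1.99% lower. The log2 fold change was 1.45 ± 0.050 (SE) for Ctsl (adjusted p = 5.85e-08), 1.11 ± 0.055 for Ctss (adjusted p = 5.79e-07) and 0.73 ± 0.061 for Ctsh (adjusted p = 1.78e-05), from limma. In FPKM these were increases of 2.73, 2.15 and 1.67 times.

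The other 7 cathepsins had log2 fold changes of 0.12 (Ctse) to 0.55 (Ctsz) and were not called. Of these, Ctsz, Ctsb (0.52), Ctsd (0.51), Ctsc (0.44) and Ctso (0.29) had an adjusted p under 0.05 but a fold change under 1.5, whereas Ctsa (0.16, adjusted p = 0.0932) and Ctse (adjusted p = 0.227) did not pass either threshold in the fit given, by limma. The median over the 10 members was 0.51, against -0.039 over all genes. By adjusted p alone 8 of 10 members passed, as did 29.8% of all genes. Of these, Ctsd and Ctso depended on the setting: Ctsd had a log2 fold change of 0 under quantile normalization, which sets genes of equal rank to equal values (Ctsd ranked 5 in all 4 libraries), and an adjusted p of 0.161 without the filter on low values, and Ctso had an adjusted p of 0.121 without the filter and 0.0543 to 0.121 without 1 of 3 libraries. Ctsa in turn passed the adjusted p with upper quartile scaling (0.042), voom (0.0331) and without either RANKL library (0.0237 each). Under quantile normalization and upper quartile scaling Ctsz passed the fold threshold as well, at 0.59 in each. Both PRDX1 libraries lay above both untreated ones for 10 of 10 members, a separation that 26.1% of all genes tested showed in that direction.

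With RANKL present, PRDX1 raised 7 of the 10 cathepsins and lowered none, where 6.03% of all genes were called higher and 4.17% lower. By limma the log2 fold change was 1.38 ± 0.043 (SE) for Ctsb (adjusted p = 1.24e-08), 1.34 ± 0.050 for Ctsl (adjusted p = 3.83e-08), 1.29 ± 0.055 for Ctss (adjusted p = 8.01e-08) and 1.007 ± 0.037 for Ctsd (adjusted p = 3.01e-08). These were increases of 2.60, 2.54, 2.45 and 2.01 times in FPKM. Smaller increases were called for Ctsc, at 0.83 ± 0.043 (adjusted p = 3.41e-07), Ctse, at 0.76 ± 0.070 (adjusted p = 1.75e-05), and Ctsh, at 0.73 ± 0.061 (adjusted p = 8.66e-06). Not called were Ctsz (0.47, adjusted p = 1.11e-05, and called at 0.62 under quantile normalization), Ctso (0.30, adjusted p = 0.00979) and Ctsa (0.12, adjusted p = 0.143).

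By adjusted p alone 9 of 10 members passed, as did 42.5% of all genes. Ctso did not pass it without the filter on low values (0.078) or without the second RANKL library (0.0565) or the second with both treatments (0.0885). Ctsa passed it under quantile normalization (0.0288), with upper quartile scaling (0.0472) and without the second RANKL library (0.0104). The median over the 10 members was 0.79, against -0.057 over all genes. Both libraries with PRDX1 and RANKL lay above both with RANKL alone for 10 of 10 members, and 27.9% of all genes tested showed this. The sum of the macrophage markers was higher with PRDX1 in the same libraries (1701 to 1743 against 1265 to 1384 FPKM) and that of the osteoclast markers lower, and their part in the cathepsin changes was not tested.

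**Figure D3:**
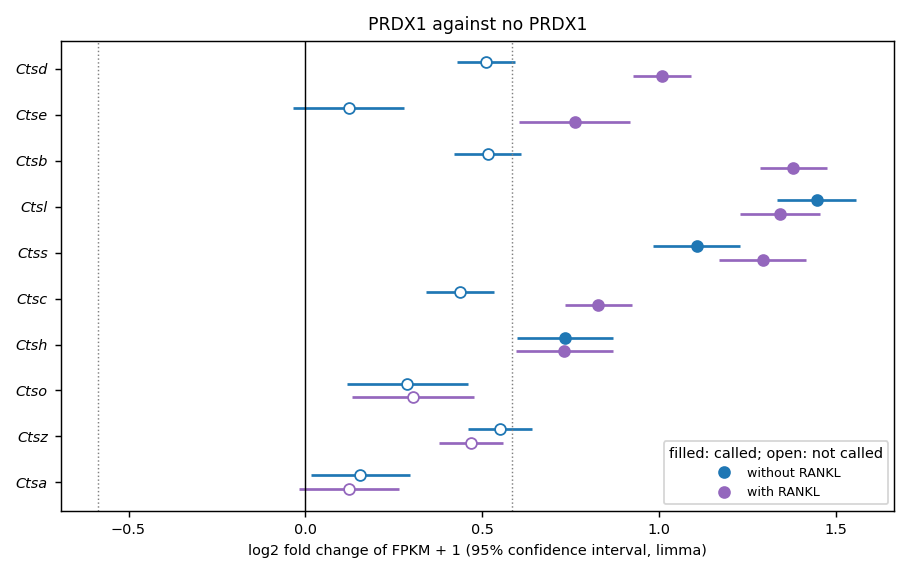
Points give the log2 fold change of FPKM + 1 by PRDX1 for each cathepsin without and with RANKL, with limma's 95% confidence interval, and the dotted lines mark the fold change of 1.5. All points lie above 0, the intervals of Ctse without RANKL and Ctsa with RANKL reach below it, and the pairs lie farthest apart for Ctsb (0.52 and 1.38) and Ctse (0.12 and 0.76).

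RANKL treatment had the opposite direction for most members. Without PRDX1 it lowered 6 of the 10 cathepsins and raised none, where 9.96% of all genes were called lower and 11.8% higher. By limma Ctsb fell by 1.75 ± 0.043 (SE) on the log2 scale (adjusted p = 4.79e-10), Ctsd by 1.27 ± 0.037 (adjusted p = 1.58e-09), Ctse by 1.18 ± 0.070 (adjusted p = 2.86e-07) and Ctsc by 0.95 ± 0.043 (adjusted p = 3.60e-08). Ctss fell by 0.71 ± 0.055 (adjusted p = 2.04e-06) and Ctsh by 0.64 ± 0.061 (adjusted p = 9.81e-06), the call for Ctsh being lost without the first untreated library (-0.55). In FPKM the untreated level was 3.36 times that with RANKL for Ctsb, 2.41 for Ctsd, 2.33 for Ctse, 1.95 for Ctsc, 1.63 for Ctss and 1.57 for Ctsh.

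The members not called were Ctso (-0.39, adjusted p = 0.00147), Ctsl (-0.31, adjusted p = 4.57e-04), Ctsa (-0.086, adjusted p = 0.266) and Ctsz (0.12, adjusted p = 0.0310), by limma. The value of Ctsz was -0.035 under quantile normalization. By adjusted p alone 9 of 10 members passed, as did 59.9% of all genes, but Ctsz did not pass in 8 of 15 alternatives and Ctsa passed without the second RANKL library (0.0168). The median over the 10 members was -0.67, against 0.096 over all genes. The RANKL libraries lay below the untreated ones for 8 members, as for 30.2% of all genes tested, and above them for Ctsz, as for 47.7%.

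In cells that also received PRDX1, RANKL lowered 3 of the 10, where 3.98% of all genes were called lower and 4.52% higher. By limma Ctsb fell by 0.89 ± 0.043 (SE) on the log2 scale (adjusted p = 2.41e-07), Ctsd by 0.77 ± 0.037 (adjusted p = 2.20e-07) and Ctsh by 0.64 ± 0.061 (adjusted p = 2.92e-05). Just short of the fold threshold were Ctsc (-0.56, adjusted p = 5.80e-06), Ctse (-0.54, adjusted p = 2.20e-04) and Ctss (-0.52, adjusted p = 5.62e-05), and under upper quartile scaling 5 members were called, with Ctsc and Ctse added. Under quantile normalization Ctsb (-0.52) and Ctsd (-0.58) lost their calls and Ctse (-0.59) gained one. The others were Ctsl (-0.41), Ctso (-0.37), Ctsa (-0.12) and Ctsz (0.034, and -0.0071 and -0.021 under quantile normalization and upper quartile scaling). By adjusted p alone 8 of 10 members passed, as did 40.6% of all genes. The median over the 10 members was -0.53, against 0.070 over all genes. Libraries with both treatments lay below those with PRDX1 alone for 9 members, as for 27.0% of all genes tested, and above them for Ctsz, as for 47.3%.

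**Figure D4:**
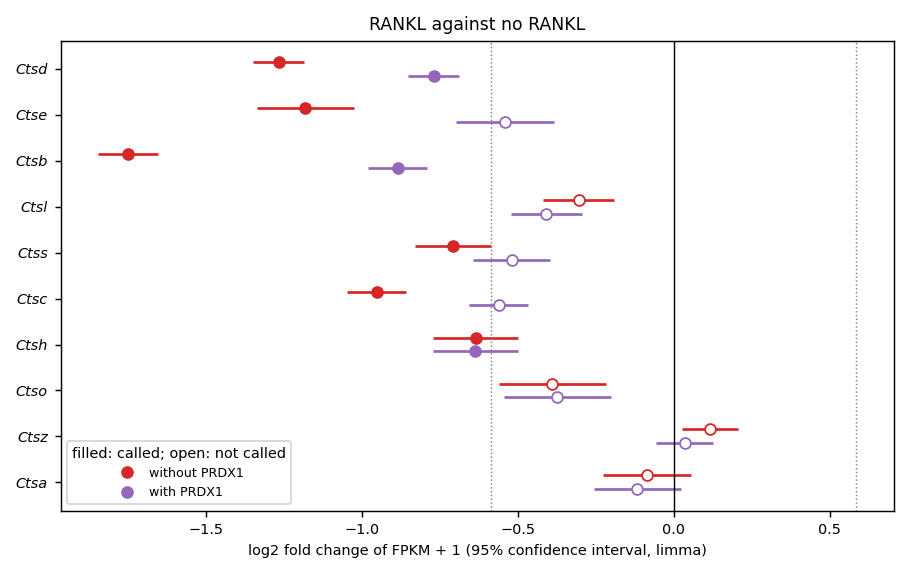
Points give the log2 fold change of FPKM + 1 by RANKL for each cathepsin without and with PRDX1, with limma's 95% confidence interval and dotted lines at a fold change of 1.5. Ctsb, Ctsd and Ctse lie farthest to the left without PRDX1 (-1.75, -1.27 and -1.18) and nearer to 0 with it (-0.89, -0.77 and -0.54), whereas Ctsz lies near 0 in both.

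Whether the PRDX1 effect depended on RANKL was tested by the interaction of the 2 treatments in the same model. It was called for 2 of the 10 cathepsins, both with a larger increase by PRDX1 in the presence of RANKL, where 4.50% of all genes had such an interaction and 4.35% one in the other direction. The difference was 0.86 ± 0.060 (SE) in log2 for Ctsb (adjusted p = 8.90e-06, limma) and 0.64 ± 0.099 for Ctse (adjusted p = 0.00132, limma). The call for Ctse was lost when the first untreated library (0.56) or the first RANKL library (0.57) was left out. For Ctsd the difference was 0.50 ± 0.052 (adjusted p = 1.10e-04, limma) and for Ctsc 0.39 ± 0.060 (adjusted p = 0.00126, limma), both below the size required. By adjusted p alone these 4 members passed, as did 23.1% of all genes. The interaction of Ctsd was 0.77 under quantile normalization, where its PRDX1 effect without RANKL was 0, and had an adjusted p of 0.374 without the filter on low values.

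For the 3 cathepsins raised by PRDX1 in both settings, a difference was not called. Its 95% confidence interval was -0.26 to 0.056 for Ctsl, -0.19 to 0.19 for Ctsh and 0.014 to 0.36 for Ctss, the last with an adjusted p of 0.116 by limma. For Ctss no alternative gave a call, but the adjusted p depended on the setting, with a difference of 0.57 under quantile normalization (adjusted p = 6.49e-04, limma), 0.19 by voom on the recovered reads (adjusted p = 0.0459) and 0.27 without the first RANKL library (adjusted p = 0.00934, limma). The intervals for Ctsz (-0.21 to 0.046), Ctso (-0.23 to 0.26) and Ctsa (-0.23 to 0.17) included 0.

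Cathepsin K, the reference, had a pattern of its own. Ctsk lies 17398 bases from Ctss on the same strand of chromosome 3, from 95499210 to 95509387, with 0 genes of the table between them. It was at 0.0430 and 0.122 FPKM in untreated cells, 0.0810 and 0.324 with PRDX1, 169.2 and 167.4 with RANKL and 8.12 and 8.46 with both. RANKL alone thus gave the highest Ctsk and the lowest sum of the other 10 cathepsins, of which Ctsk was 4.49% and 4.58% there and 0.106% and 0.111% with both treatments. Its neighbour Ctss was 2.45 times as high with both treatments as with RANKL alone, whereas Ctsk was at 0.0493 times its level (log2 fold change -4.19 ± 0.10, adjusted p = 4.08e-09, limma).

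Of the 14 other cathepsin family genes listed, including Ctsk, 4 passed the filter and the other 10 reached at most 10 reads in a library, with 9 at 0 throughout. PRDX1 raised 1 of the 4 without RANKL, Ctsg, the neutrophil serine protease cathepsin G, and with RANKL it raised none and lowered 1, Ctsk. Ctsg was at 0.307 and 0.338 FPKM in untreated cells and 1.22 and 0.886 with PRDX1, a low level. The neutrophil sum was also higher with PRDX1, and its part was not tested. With RANKL alone that sum was above the untreated one, whereas Ctsg was at 0.296 and 0.204 FPKM. Ctsg passed the filter on low values only through the PRDX1 group in which it was high, so that its call is no support for a change. Ctsf, a cysteine cathepsin, was at means of 3.55, 2.43, 4.64 and 3.08 FPKM in the order untreated, PRDX1, RANKL and both, and Napsa, the aspartic protease napsin A, at 32.5, 34.4, 41.8 and 39.5, and neither was called in any comparison. The median log2 fold change over the 4 was 0.11 without RANKL and -0.27 with RANKL, against -0.039 and -0.057 over all genes. Of all genes, PRDX1 gave calls of 3.80% higher and 1.99% lower without RANKL, and 6.03% and 4.17% with it.

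Cystatins and stefins bind cysteine cathepsins and block them. Of 14 listed inhibitors, 12 were in the table and 4 passed the filter. PRDX1 raised 0 and lowered 0 of the 4 without RANKL (median 0.18), and with RANKL it lowered 1 and raised 0 (median -0.15). Over all genes 3.80% were called higher and 1.99% lower without RANKL (median -0.039), and 6.03% and 4.17% with it (median -0.057). The one that fell was Cst7, cystatin F, at 2.43 and 2.33 FPKM with RANKL and 0.464 and 1.66 with both (log2 fold change -0.78 ± 0.22, adjusted p = 0.0183, limma), with a wide spread. RANKL alone raised 3 of the 4, where 11.8% of all genes were called higher. The 3 were Cst7, Serpina3g and Cstb, which were named after their values were seen. Of these Serpina3g, at means of 0.220 FPKM in untreated cells and 1.06 with RANKL, passed the filter only through the groups with RANKL, so that its call is no support for a change. Cstb, stefin B, was at 356.9 and 362.7 FPKM in untreated cells and 728.9 and 687.7 with RANKL (log2 fold change 0.97 ± 0.050, adjusted p = 7.10e-08, limma). The most abundant inhibitor, Cst3 (cystatin C), was not called in any comparison and ranged from 823.8 to 1149 FPKM.

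All 8 genes for sorting and activation of cathepsins passed the filter, and they did not move one way. PRDX1 raised 1 and lowered 1 of them without RANKL (median 0.08) and raised 2 and lowered 1 with RANKL (median 0.06). Over all genes 3.80% were called higher and 1.99% lower without RANKL (median -0.039), and 6.03% and 4.17% with it (median -0.057). RANKL alone raised 3 and lowered 3, where 11.8% of all genes were called higher and 9.96% lower. In cells with PRDX1 it raised 2 and lowered 3, where 4.52% of all genes were called higher and 3.98% lower. Igf2r, the larger mannose-6-phosphate receptor, was at 1.42 and 1.67 FPKM in untreated cells, 5.72 and 6.06 with PRDX1, 23.4 and 28.1 with RANKL and 19.9 and 22.2 with both. By limma its log2 fold change by PRDX1 was 1.44 ± 0.10 without RANKL (adjusted p = 5.24e-06) and -0.27 ± 0.10 with it, and the difference between these effects was -1.71 ± 0.14 (adjusted p = 2.36e-05).

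Psap, which encodes prosaposin, the precursor of activators of lysosomal lipid breakdown and a binding partner of cathepsin D, followed the order of Ctsd. It was at 1547 and 1640 FPKM in untreated cells, 2240 and 2265 with PRDX1, 729.8 and 808.0 with RANKL and 1438 and 1487 with both, with a log2 fold change by PRDX1 of 0.93 ± 0.050 with RANKL (adjusted p = 6.66e-07, limma). Gnptab, a subunit of the enzyme that makes the mannose-6-phosphate tag, was lower with both treatments, at 26.4 and 26.4 FPKM, than with RANKL alone, at 49.6 and 51.5 (log2 fold change -0.91 ± 0.050, adjusted p = 5.69e-07, limma). Lgmn, which encodes legumain, an asparaginyl protease that processes cathepsins, was named after its values were seen. It was at 231.3 and 237.7 FPKM with RANKL and 399.6 and 401.2 with both (log2 fold change 0.77 ± 0.040, adjusted p = 5.68e-07, limma). Sort1, also named after its values were seen, was the gene that PRDX1 lowered without RANKL. Its log2 fold change was -0.62 ± 0.08 (adjusted p = 2.31e-04, limma), against 0.47 with RANKL, which was not called. The difference between these effects was called, at 1.1 ± 0.11 (adjusted p = 7.59e-05, limma).

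The 4 MiT/TFE transcription factors, which drive lysosomal genes, were all detected, and PRDX1 changed none of them by the call rule in either setting taken alone. Their median log2 fold change was 0.06 without RANKL and -0.31 with it, against -0.039 and -0.057 over all genes. At an adjusted p under 0.05 alone, Mitf, the factor of this family best known in osteoclasts, stood at 0.31 without RANKL and -0.58 with it, just short of the fold threshold. By that threshold Tfec (-0.55, adjusted p = 2.36e-04) and Tfe3 (0.26, adjusted p = 0.00662) also differed with RANKL, in opposite directions, by limma. The difference between the 2 effects was called for Mitf alone, at -0.89 ± 0.080 (adjusted p = 4.70e-05, limma). Such a difference in this direction was called for 4.35% of all genes. RANKL alone raised 2 of the 4, Mitf and Tfec, where 11.8% of all genes were called higher. These 3 factors were named after their values were seen.

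Of 8 partners and substrates of cathepsins, 5 passed the filter. PRDX1 raised 3 of them without RANKL (median 0.61) and 1 with RANKL (median 0.40), and lowered 0 in either setting. Over all genes 3.80% were called higher without RANKL (median -0.039) and 6.03% with it (median -0.057). Cd74, the invariant chain that cathepsin S cuts, was at 74.1 and 76.2 FPKM in untreated cells and 119.4 and 113.9 with PRDX1 (log2 fold change 0.63 ± 0.060, adjusted p = 5.37e-05, limma). The other two, Elane and Prtn3, are granule proteases that cathepsin C activates and neutrophil genes, and reached at most 1.64 and 1.38 FPKM. Prtn3 was also the gene called with RANKL. Both passed the filter only through the groups with PRDX1, so that their calls are no support for a change. The medians include both, and apart from them Cd74 without RANKL is the only call.

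**Figure D5:**
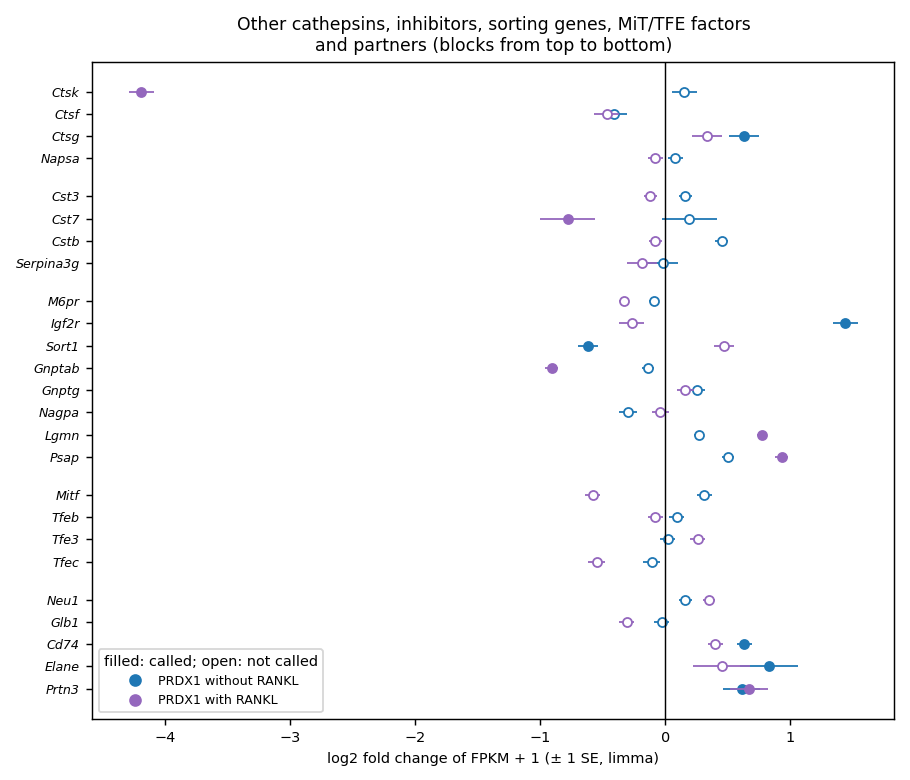
Points give the log2 fold change of FPKM + 1 by PRDX1, without and with RANKL, for the 25 listed genes that passed the filter, with 1 SE of limma's fit, in blocks of other cathepsins, inhibitors, sorting genes, MiT/TFE factors and partners. Ctsk with RANKL lies far to the left at -4.19, Igf2r without RANKL far to the right at 1.44, and Psap and Lgmn with RANKL at 0.93 and 0.77.

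The genes closest in pattern were sought for the 3 cathepsins with the widest range of group means, among 1520 genes whose own range was at least 1 on the log2 scale. Likeness was Pearson's r of log2(FPKM + 1) over the 8 libraries, which fall into 4 groups of 2, and serves as a description only. For Ctsb the 3 closest were Wfdc17, Slc15a3 and Mgst1, each at r = 0.999. For Ctss they were Havcr2 (r = 0.997), Gla (r = 0.996) and Hal (r = 0.995), and for Ctsd Hmox1 (r = 0.999), Mgst1 and Wfdc17 (both r = 0.9985). Many genes were close, with 233 above r = 0.95 for Ctsb, 220 for Ctsd and 78 for Ctss.

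Reads were counted without regard to strand, so that overlapping genes can share them. Exons of Ctsb overlapped those of the antisense gene Fdft1 over 774 bases (16.3% of the Ctsb exons), and Fdft1 was at 12.5 to 39.2 FPKM. Exons of Ctsa overlapped those of antisense Pltp over 495 bases (14.8%), at 40.5 to 223.9 FPKM, and those of Ctsz overlapped Nelfcd over 10 bases. For Ctsd, 808 bases (38.0%) were shared with Gm49369 on the same strand, for which no level was used here. The part of these neighbours in the values of Ctsa, the member of smallest change, and of Ctsb, Ctsd and Ctsz was not tested.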

How the data were processed

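RNA was sequenced with 100-base paired-end reads on an Illumina NovaSeq instrument. Per the file headers and the submitters' processing notes, the authors used HISAT2 and HOMER with the mm10 build: reads on either strand were counted over exons, genes were condensed to 1 RefSeq transcript each, and the deposited values are FPKM, not counts. 0 other columns of per-sample values were left out. FPKM times transcript length came out as whole reads (tolerance 0.1 read) for 100.0% of the 3224 to 3481 genes checked per library, and gave the library totals.

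Here log2(FPKM + 1) was fitted with limma 3.58.1 in R 4.3.3, with all 4 groups in 1 model and a trend on intensity, over 11700 genes, and adjusted over all of them. Intervals are at 95%. The 2 libraries of a group differed by more than counting noise (chi-square per degree of freedom 4.71 to 9.58). All members were named. From each list, up to 3 genes called in a PRDX1 comparison with the largest change were named, together with every other cathepsin that passed the filter. Members and lists were chosen with earlier results of these data known. Alternatives were other pseudocounts, filters and scalings, voom on the recovered reads, a replicate block, only the groups compared, and each library left out. Sequences came from RefSeq (GRCm38.p6).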

Additional observations from a re-analysis of the deposited data

Results flagged for a closer look

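The effect of PRDX1 differed between cells with and without RANKL for Ctsb and Ctse by the interaction term of limma's fit. For Ctsb the effect with RANKL minus that without was 0.86 in log2 (adjusted p = 8.90e-06), with values of 0.52 without RANKL, which was below the fold threshold and not called, and 1.38 with it. For Ctse it was 0.64 (adjusted p = 0.00132), with values of 0.12 without RANKL, which was not called (adjusted p = 0.227), and 0.76 with it. Without the first untreated or the first RANKL library the interaction of Ctse was 0.56 or 0.57 and was not called. Over all genes tested 4.50% had an interaction in this direction.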

How the results depend on the processing

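Over 15 alternatives, 750 values of single members were recomputed, of which 714 kept their direction and their side of the call rule. Ctsd, by PRDX1 without RANKL, was 0 under quantile normalization (adjusted p = 1) against 0.51. By adjusted p alone 30 of the 750 values changed side (18 lost, 12 gained), all of Ctsa, Ctsd, Ctso, Ctss or Ctsz. The count of cathepsins changed by RANKL with PRDX1 was 5 under upper quartile scaling. With the adjusted p alone and no fold threshold, the counts were 8 for PRDX1 without RANKL (29.8% of all genes), 9 with RANKL (42.5%), 9 for RANKL without PRDX1 (59.9%), 8 with PRDX1 (40.6%) and 4 for the interaction (23.1%). With each library left out the interaction count was 1 to 2, being 1 without the first untreated or the first RANKL library. Values that turned direction were small. The interaction of Ctsh, -0.0018, was 0.0029 with a pseudocount of 0.1, 2e-04 by voom, 0.0093 with upper quartile scaling and 0.041 with quantile normalization. Quantile normalization also gave interactions of 0.050 for Ctsa, 0.069 for Ctsl and 0.028 for Ctsz, and RANKL effects on Ctsz of -0.035 without and -0.0071 with PRDX1, the latter -0.021 with upper quartile scaling. With each library left out, the interaction spanned -0.087 to 0.083 for Ctsh, -0.073 to 0.10 for Ctso and -0.13 to 0.065 for Ctsa, and the RANKL effect on Ctsa without PRDX1 -0.18 to 0.011. Relative to untreated cells, the summed level was 1.63, 0.477 and 1.02 with PRDX1, RANKL and both under upper quartile scaling, and 1.58, 0.466 and 0.997 as a share of reads. Libraries with the same number in the labels did not deviate together (r of 0.008 to 0.096 over 6 pairs of groups), but the table's header names the libraries by other numbers, so that which of them share a number is uncertain. With the replicate block by the labels' numbers, the counts of cathepsins past both thresholds were as without it, 3, 7, 6, 3 and 2, while by adjusted p alone Ctsa passed by PRDX1 without RANKL (0.0363 against 0.0932). With 2 libraries per group the spread rests on 4 residual degrees of freedom, while each cathepsin had at least 1107 reads in every library.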
